A study of Mus musculus with 3 samples.

Results

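A set of genes that answer to glucocorticoid hormones were followed in mouse lung endothelial cells (ECs) after the arrival of melanoma cells: Fkbp5, Tsc22d3, Zbtb16, Klf9, Fam107a, Sult1a1, Sgk1 and Nr3c1, which make 8 of the 32285 genes in the matrices. They were picked by symbol from their measured values, for a lower level at 6 h in these libraries, with Nr3c1, the receptor itself, set beside them. The levels at 6 h are therefore a description of that choice and were not tested. Of the 7 genes picked for that level, 6 were lower at 6 h by at least 0.5 on the log2 scale, and Sgk1 was not.

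Glucocorticoids (corticosterone in mice) enter cells and bind the glucocorticoid receptor, which waits in the cytoplasm with Hsp90 and its co-chaperones. The bound receptor moves to the nucleus, where it binds palindromic DNA elements and raises the transcription of some genes, and it lowers that of many inflammatory genes, in part by acting on other transcription factors. In ECs the hormone is known to strengthen junctions and to damp adhesion molecules, and several receptor targets feed back on the receptor or follow the daily rhythm of the hormone.

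The data comprised 3 droplet single-cell libraries of 3′ ends from sorted Pecam1-positive and Ptprc-negative lung cells of C57BL/6 wild-type mice, 1 library per group, so no difference has a replicate check and no test between groups was made. The control came from mice given PBS through the tail vein and taken at 6 h, and the other libraries from mice given 200000 B16-F10 cells in 100 µl and taken at 6 h or at 30 h. These B16-F10 cells are a mouse skin melanoma line that lodges in lung capillaries. The labels give 2 mice per treatment, pooled, while the methods of the study give another number, a discrepancy that stays unresolved here. According to the methods, the mice were males of a C57BL/6 substrain. None carried a transgene or deletion according to the labels. All lungs were digested in warm collagenase before sorting, and per the labels the 6 h library also took in dye-labelled melanoma cells. No library of PBS-treated mice at 30 h was used, so time and treatment cannot be told apart in the comparison of 30 h with the control, and both melanoma comparisons share the same control library.

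Endothelial barcodes (1000 to 5000 genes, under 20% mitochondrial UMIs, at least 2 UMIs of Pecam1 and Cdh5 together) numbered 11231 in the control, 10583 at 6 h and 9278 at 30 h, with a median of 7782, 8033 and 8675.5 UMIs (unique molecular tags, each marking 1 captured RNA molecule). Summed over these barcodes the libraries held 90853430, 87340328 and 81485079 UMIs. Levels are given as UMIs per 1000000 UMIs of the sum (CPM), with 95% exact Poisson intervals, and log2 ratios of CPM with 95% exact conditional intervals, and both cover counting error only. Pairs of libraries shared between 22 and 38 barcode sequences, and leaving these out changed no count of members. The 7 leukocyte markers summed to between 63.8 and 116 CPM in the endothelial sums and between 2944 and 10730 CPM in those of the other barcodes that passed the same limits. The 3 red cell markers summed to 2339, 1542 and 614 CPM in the endothelial sums, above the 1087 and 218 CPM of the other barcodes at 6 h and 30 h, and to 44933, 28947 and 8007 CPM in empty droplets. Melanoma markers summed to 1.24 CPM in the control, 14 at 6 h and 1.03 at 30 h.

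Nr3c1 encodes the receptor. Its level was 234 CPM (231 to 237) in the control, 245 (242 to 248) at 6 h and 245 (241 to 248) at 30 h, so the 3 libraries lay close together. The log2 ratio to the control was 0.07 (0.04 to 0.09) at 6 h and 0.06 (0.04 to 0.09) at 30 h. Receptor RNA was thus slightly above the control in both melanoma libraries, by less than the 0.5 on the log2 scale used here as the fold of interest. Within the blood vessel classes described below it lay between 222 and 238 CPM in the control.

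Among the members that act back on the receptor, Fkbp5 (chr17:28399094-28517527, minus strand, mm10) encodes an immunophilin that joins the Hsp90 complex and lowers the hormone affinity of the receptor. Its level was 49.2 CPM (47.8 to 50.7) in the control, 26.8 (25.8 to 28.0) at 6 h and 17.5 (16.6 to 18.5) at 30 h. The libraries were ordered control, 6 h, 30 h with no overlap of their counting intervals. The log2 ratio to the control was −0.87 (−0.95 to −0.80) at 6 h and −1.49 (−1.58 to −1.40) at 30 h. A short sense-intronic gene within it, Gm49838, held 6, 3 and 1 UMIs in the same order, too few to bear on these levels.

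Tsc22d3, Zbtb16 and Klf9 encode regulators of transcription. Tsc22d3 (chrX:140539528-140600659, minus strand), known as GILZ, restrains NF-kB and AP-1, and its level was 205 CPM (202 to 208) in the control, 130 (127 to 132) at 6 h and 203 (200 to 206) at 30 h. Only the 6 h library was low, with a log2 ratio of −0.66 (−0.69 to −0.62), and at 30 h the ratio was −0.01 (−0.04 to 0.02). Zbtb16 (chr9:48654297-48836222, minus strand), the zinc finger repressor PLZF, also had its lowest level at 6 h, with a deeper dip: 229 CPM (226 to 232) in the control, 105 (103 to 107) at 6 h and 250 (247 to 254) at 30 h. Its log2 ratio was −1.13 (−1.16 to −1.09) at 6 h and 0.13 (0.10 to 0.16) at 30 h, so the 30 h library lay slightly above the control. Klf9 (chr19:23141226-23168134, plus strand), a Krüppel-like repressor, stood between these patterns, with 521 CPM (516 to 525) in the control, 320 (316 to 324) at 6 h and 396 (392 to 400) at 30 h. Its log2 ratio was −0.70 (−0.72 to −0.68) at 6 h and −0.39 (−0.41 to −0.37) at 30 h.

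Fam107a and Sult1a1 are effectors outside transcription. Fam107a (chr14:8296274-8318023, minus strand) encodes an actin-binding protein known as a stress-responsive gene in brain, and its level was 44.6 CPM (43.2 to 46.0) in the control, 17.7 (16.8 to 18.6) at 6 h and 16.7 (15.9 to 17.6) at 30 h. Both melanoma libraries were low and their intervals overlapped. The log2 ratios to the control were −1.34 (−1.42 to −1.25) and −1.41 (−1.50 to −1.33). Sult1a1 (chr7:126672865-126676432, minus strand), a sulfotransferase of phenols, had 75.9 CPM (74.1 to 77.7) in the control, 33.4 (32.2 to 34.6) at 6 h and 26.5 (25.4 to 27.6) at 30 h. Its log2 ratios were −1.19 (−1.25 to −1.12) and −1.52 (−1.59 to −1.45), low in both melanoma libraries and lower at 30 h. Sgf29 overlaps it on the other strand, and whether the counting used strand is not stated in the sources used here, so the share of its reads in these values is uncertain. Sgf29 itself had 33.9, 39.2 and 27.4 CPM in the same order, which is not the order of Sult1a1.

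Sgk1 (chr10:21882184-21999903, plus strand) encodes a serum- and glucocorticoid-regulated kinase that controls ion transport and cell survival. Its level was 301 CPM (297 to 304) in the control, 320 (316 to 324) at 6 h and 253 (250 to 257) at 30 h. The 6 h library was the highest and the 30 h library the lowest. The log2 ratio was 0.09 (0.06 to 0.11) at 6 h and −0.25 (−0.27 to −0.22) at 30 h, both short of the fold.

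**Figure D1:**
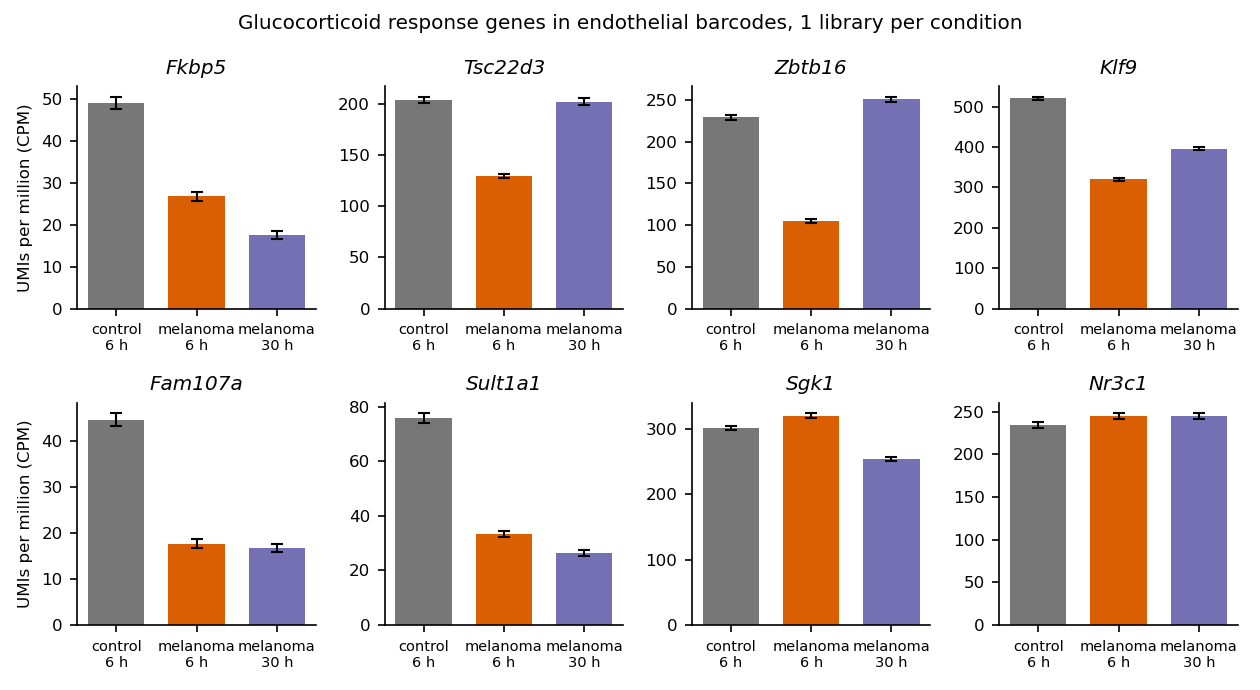
Level of each of the 8 genes in endothelial barcodes (CPM, y axes from 0) in the control, the 6 h melanoma library and the 30 h melanoma library. Bars are sums over 1 library and error bars are 95% Poisson intervals of the counts; Tsc22d3 and Zbtb16 are low only at 6 h (130 and 105 CPM), Fkbp5, Fam107a and Sult1a1 are low at 6 h and 30 h, and Sgk1 and Nr3c1 are not low at 6 h.

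Against the 6 h control, 6 of the 8 members were lower by the fold at 6 h and none was higher. The corresponding shares of all 10175 genes that averaged 5 CPM or more were 1.81% lower and 2.57% higher, from which nothing is read, since this contrast chose the members. These shares are on the log2(CPM + 1) scale, on which the counts of members are the same. At 30 h, 3 members (Fkbp5, Fam107a and Sult1a1) were lower and none was higher, beside 7.34% of genes lower and 5.87% higher, again against the control library that the choice used. Median-of-ratios scaling turned these shares to 4.81% lower and 7.79% higher. From 6 h to 30 h, 2 members (Tsc22d3 and Zbtb16) were higher by the fold and 1 (Fkbp5) was lower, beside 6.39% of genes higher and 6.82% lower. Ratios of 30 h to 6 h also use the 6 h library whose low values chose the members, so rises in them partly restate that choice. By 30 h the members differed. Zbtb16 stood 2.39-fold and Tsc22d3 1.56-fold above their 6 h levels, and Klf9 1.24-fold, while Fkbp5 was at 0.653 times, Sult1a1 at 0.794 times and Fam107a at 0.947 times its 6 h level. The members nearest the fold at 6 h were Tsc22d3 on the inner side (−0.66) and Sgk1 on the outer side (0.09).

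Promoters of members were read from the RefSeq windows of GRCm38.p6, the assembly of mm10, which run from 250 bases before to 50 bases after each annotated start. The windows covered 6 of the 8 genes (15 windows); Zbtb16 and Nr3c1 had none. The letters searched, on both strands, were the receptor hexamer TGTTCT, the looser core ACANNNTGT, and the full palindrome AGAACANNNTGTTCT, which contains the other motifs. They occur in 19.0%, 6.85% and 0.00913% of the 32851 windows of the table, the last in 3 windows. Counted by gene, as the members are below, a match lies in a window of 21.3%, 7.90% and 0.0111% of the 27025 genes. A member with several windows has more chances of a match than a gene with 1. The hexamer was found in windows of 4 members (Tsc22d3, Fam107a, Sult1a1, Sgk1), the core in windows of 2 (Fam107a and Sgk1) and the palindrome in 1 window of Sgk1, while the single windows of Fkbp5 and Klf9 held none of the letters. To show the letters found, 1 window is printed for each of the 4 members with a match, that with the most matches (for Fam107a, 1 of 2 windows that hold the same matches); capitals mark the matches, which are descriptions of letters and not of binding, and the windows are printed 5′ to 3′ on the strand of the gene.
Sgk1, chr10:21993640-21993939, plus strand: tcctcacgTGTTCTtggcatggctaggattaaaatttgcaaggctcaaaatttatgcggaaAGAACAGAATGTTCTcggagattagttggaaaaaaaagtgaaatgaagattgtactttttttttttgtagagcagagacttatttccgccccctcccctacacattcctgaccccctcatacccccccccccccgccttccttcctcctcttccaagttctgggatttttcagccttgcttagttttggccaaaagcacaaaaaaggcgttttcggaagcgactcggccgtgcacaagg
Fam107a, chr14:8309730-8310029, minus strand: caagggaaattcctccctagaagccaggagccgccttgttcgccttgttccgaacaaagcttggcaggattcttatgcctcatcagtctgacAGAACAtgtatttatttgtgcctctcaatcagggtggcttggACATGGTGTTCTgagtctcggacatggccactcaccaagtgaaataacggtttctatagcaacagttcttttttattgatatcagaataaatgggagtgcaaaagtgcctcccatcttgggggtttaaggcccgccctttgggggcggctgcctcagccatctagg
Sult1a1, chr7:126676369-126676668, minus strand: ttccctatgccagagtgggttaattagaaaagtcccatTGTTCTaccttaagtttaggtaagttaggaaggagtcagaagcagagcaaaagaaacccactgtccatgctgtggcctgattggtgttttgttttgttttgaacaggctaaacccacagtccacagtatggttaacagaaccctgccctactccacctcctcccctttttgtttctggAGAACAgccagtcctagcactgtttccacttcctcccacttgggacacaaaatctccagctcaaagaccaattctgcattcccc
Tsc22d3, chrX:140600473-140600772, minus strand: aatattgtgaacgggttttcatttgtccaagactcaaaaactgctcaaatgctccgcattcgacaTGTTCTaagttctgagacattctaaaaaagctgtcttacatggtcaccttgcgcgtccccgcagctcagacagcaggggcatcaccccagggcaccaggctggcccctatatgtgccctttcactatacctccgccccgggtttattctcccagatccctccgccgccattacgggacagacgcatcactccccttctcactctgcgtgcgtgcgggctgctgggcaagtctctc
In the Sgk1 window, the palindrome starts 189 bases before the annotated start and 1 more hexamer lies outside it. In the Fam107a window, the core overlaps a hexamer, and the second hexamer lies upstream of both. Sgk1, the gene with the palindrome, was not low at 6 h, and Fkbp5 and Klf9, with no match in these windows, were; receptor elements are known to lie far from start sites as well, outside what was read here.

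Endothelial barcodes were split by marker UMIs into general capillary (gCap-like), aerocyte (aCap-like, the large cells of gas exchange), artery-like, vein-like and lymphatic (LEC-like) classes. The gCap-like class held 7255, 6999 and 5480 barcodes in the control, 6 h and 30 h libraries, the aCap-like 1336, 1096 and 1296, the vein-like 601, 463 and 455, the artery-like 182, 161 and 237 and the LEC-like 71, 51 and 55. Between 15.9% and 18.9% of endothelial barcodes fell in no class. Among markers outside the gates, Vwf stood between 2084 and 2653 CPM in vein-like sums and Maf between 1673 and 1952 CPM in LEC-like sums. Vwf was also 1095, 878 and 1145 CPM in artery-like sums. Cd93, listed for general capillaries, was 1760 CPM in gCap-like and 1699 CPM in vein-like sums of the control. Hilpda and Plvap, listed as general capillary markers, did not follow the gates: Hilpda was 876, 478 and 610 CPM in gCap-like and 1059, 800 and 841 CPM in artery-like sums, and Plvap was 1180 and 1223 CPM in the control. The 10 leading genes of the artery-like class included the epithelial surfactant genes Sftpc and Sftpa1 beside 4 artery markers. Sftpc was 7806, 2290 and 1432 CPM in the artery-like sums of the control, 6 h and 30 h, and 2042, 73.1 and 47.8 CPM in the LEC-like ones. Some ratios of both classes are given below also without barcodes that carry markers of another cell type. The epithelial markers used for this were Epcam, Ager and Cdh1, so it does not show that barcodes with Sftpc or Sftpa1 were removed.

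In the control, the classes differed in which members they held. Fkbp5 ran from 155 CPM (LEC-like) over vein-like, artery-like and gCap-like to 20.6 CPM (aCap-like), with no overlap between neighbours in that order. Fam107a was highest in vein-like barcodes (127 CPM), followed by artery-like (65.9), gCap-like (40.8) and aCap-like (24.0), and the LEC-like sum held only 4 UMIs. Sult1a1 was 313 CPM in LEC-like barcodes and 20.9 in aCap-like ones. Tsc22d3 and Sgk1 were both highest in aCap-like barcodes, at 362 and 379 CPM, but differed in the order of the other classes. Vein-like barcodes came next for Tsc22d3 and gCap-like ones for Sgk1. The lowest values were 133 CPM of Tsc22d3 in artery-like barcodes, which overlapped the LEC-like value, and 64.2 CPM of Sgk1 in LEC-like ones. Zbtb16 was highest in gCap-like barcodes (246 CPM) and lowest in LEC-like ones (62.6), while aCap-like, artery-like and vein-like neighbours overlapped. Klf9 ranged from 316 CPM in LEC-like to 599 in artery-like barcodes. Nr3c1 was 348 CPM in LEC-like barcodes and between 222 and 238 in the 4 others, whose neighbours overlapped.

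At 6 h Fkbp5, Tsc22d3, Zbtb16 and Klf9 were below the control in all 5 classes, with counting intervals clear of 0. Of 39 pairs of a member and a class (Fam107a in LEC-like barcodes left out, at 4, 0 and 1 UMIs), 27 were lower by the fold and 0 were higher, where 7.84% of all pairs of a gene and a class were lower and 8.71% higher. At 30 h 15 were lower and 3 higher, beside 14% and 10.8% of all pairs. From 6 h to 30 h, 6 were lower and 11 higher, beside 13.9% and 11.2%. These shares cover 50852 pairs of genes that averaged 5 CPM or more in the class, and both comparisons with the control use the library that the choice used. The comparison of 30 h with 6 h uses the 6 h library whose low values chose the members, so its higher pairs partly restate that choice. Zbtb16 ranged at 6 h from a log2 ratio of −0.61 (−0.70 to −0.52) in aCap-like to −1.56 (−2.79 to −0.49) in LEC-like barcodes, the latter −1.46 without barcodes carrying markers of another cell type. Klf9 varied little, between −0.51 (−0.60 to −0.43) in vein-like and −0.75 (−1.14 to −0.36) in LEC-like barcodes, the latter −0.89 without those barcodes. Tsc22d3 was −0.80 (−0.84 to −0.75) in gCap-like barcodes but −0.32 (−0.38 to −0.26) in aCap-like and −0.31 (−0.44 to −0.17) in vein-like ones, short of the fold. Sgk1 was higher in vein-like barcodes, at 0.45 (0.33 to 0.56), and lay between −0.09 and 0.11 in aCap-like, artery-like and gCap-like ones. In LEC-like barcodes it was −0.60 (−1.49 to 0.24), an interval that spans 0.

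At 30 h the classes spread out. In aCap-like barcodes Fkbp5 went from 20.6 CPM in the control over 10.6 at 6 h to 3.25 at 30 h, and Fam107a from 24.0 over 11.0 to 2.47. The log2 ratios to the control were −2.67 (−3.13 to −2.23) and −3.28 (−3.80 to −2.80), the lowest of the 5 classes for Fkbp5 and of the 4 with enough UMIs for Fam107a. Tsc22d3 was still low there, with 362 CPM in control barcodes, 290 at 6 h and 223 at 30 h, although it stood at or above the control in gCap-like, artery-like and vein-like barcodes. Sgk1 in aCap-like barcodes went from 379 over 355 to 216 CPM, a log2 ratio of −0.81 (−0.87 to −0.75) at 30 h, beside −0.08 (−0.11 to −0.04) in gCap-like barcodes. In the aCap-like sums 5 members were lower than the control by the fold at 30 h (Fkbp5, Tsc22d3, Fam107a, Sult1a1 and Sgk1), beside 11.8% of the 9804 genes of that class, with Klf9 at −0.45 (−0.51 to −0.39). In control, 6 h and 30 h aCap-like sums, some class markers moved as well. Outside the gate, Car4 was 2079, 1840 and 3020 CPM and Apln 130, 184 and 325 CPM. Of the gate genes, Ednrb was 1253, 1020 and 1514 CPM and Rprml 111, 134 and 176 CPM. Tbx2 moved less, at 631, 672 and 646 CPM, and Chst1 was 255, 316 and 301 CPM. The class made up 11.9%, 10.4% and 13.97% of endothelial barcodes, so it need not hold like cells in each library. The part of this in the ratios was not tested. Whether the classes differ beyond library variation was not tested, as each value comes from 1 library.

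In the larger vessels some members stood near the gCap-like values at 30 h and others did not. Fkbp5 was at −1.28 in artery-like and −1.36 in vein-like barcodes beside −1.53 in gCap-like ones, and Sult1a1 at −1.54 in vein-like beside −1.64 in gCap-like barcodes, but at −0.94 (−1.27 to −0.62) in artery-like ones. Zbtb16 in artery-like barcodes was 190 CPM in the control, 91.8 at 6 h and 322 at 30 h, with a log2 ratio of 0.76 (0.57 to 0.95) at 30 h. Fam107a in the same barcodes was 65.9, 43.6 and 62.3 CPM, at −0.08 (−0.44 to 0.29) at 30 h, where gCap-like barcodes were at −1.77 (−1.90 to −1.63). Without barcodes carrying markers of another cell type these artery-like ratios at 30 h were 0.77 for Zbtb16 and −0.03 for Fam107a. Of the artery gate genes, Gja5 was 80.2, 106 and 318 CPM in artery-like sums. The others moved less: Bmx was 316, 272 and 281 CPM, Mecom 910, 874 and 855 CPM and Adgrg6 726, 615 and 780 CPM. The class made up 1.62%, 1.52% and 2.55% of endothelial barcodes, so it need not hold like cells in each library. Tsc22d3 in vein-like barcodes was 190, 153 and 286 CPM, above the control at 30 h by 0.59 (0.48 to 0.71). In LEC-like barcodes, which rest on 51 to 71 barcodes a library, Fkbp5 was 155, 101 and 193 CPM and Zbtb16 62.6, 21.2 and 136 CPM. At 30 h the log2 ratio of Fkbp5 was 0.32 (−0.10 to 0.74), an interval that spans 0, and that of Zbtb16 1.12 (0.54 to 1.72). Without barcodes carrying markers of another cell type their log2 ratios at 30 h were 0.16 and 1.21. Sult1a1 lay between 241 and 313 CPM in LEC-like barcodes, at −0.23 (−0.58 to 0.11) at 6 h, while it was between −1.26 and −0.96 in the other 4 classes. At 30 h it was at −0.38 (−0.71 to −0.05) in LEC-like barcodes.

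**Figure D2:**
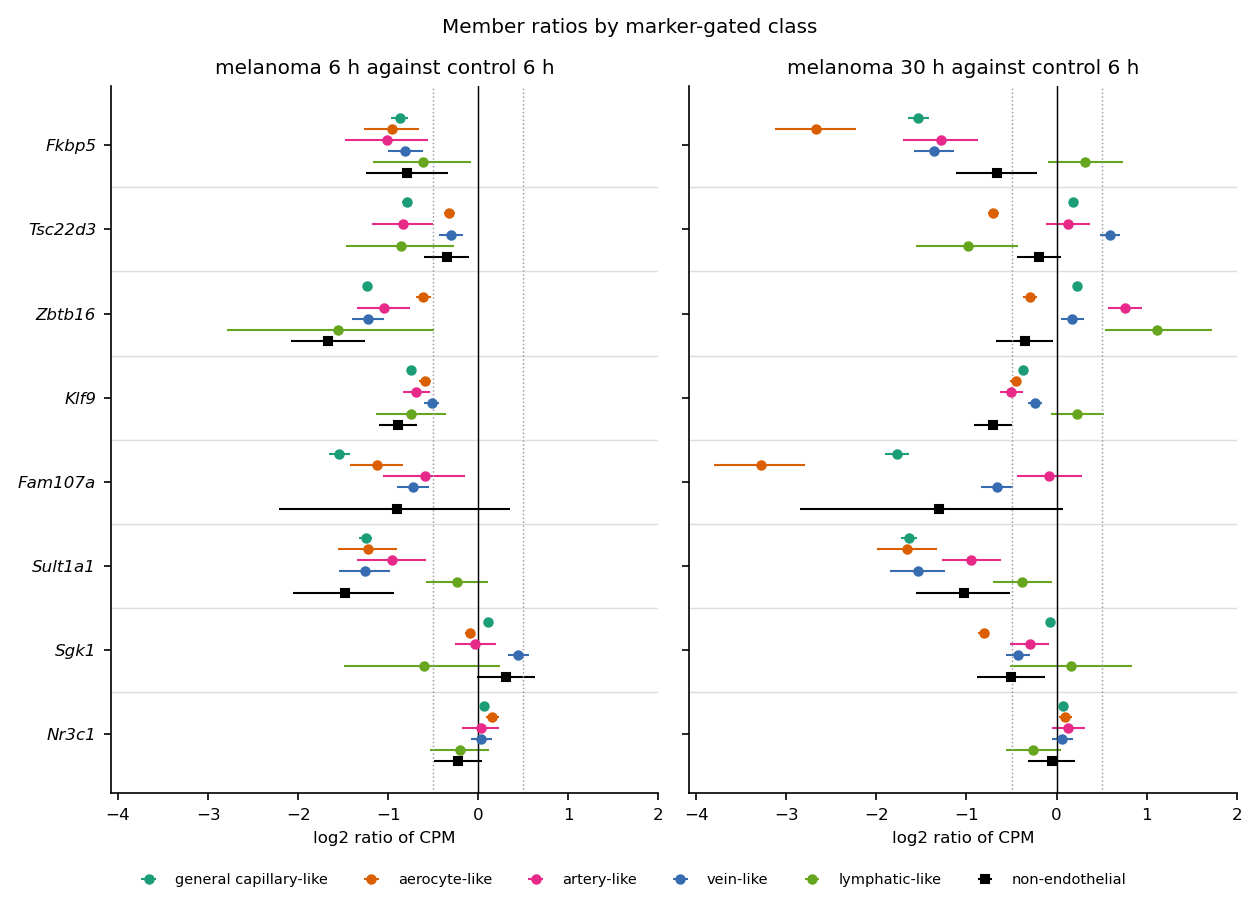
Log2 ratios of CPM for each gene at 6 h (left) and at 30 h (right) against the control. They are shown for 5 marker-gated classes and for non-endothelial barcodes, those outside the endothelial gate. Points are sums of 1 library, lines are 95% counting intervals and dotted lines mark a ratio of 0.5 in each direction. Ratios from sums with under 3 UMIs are left out. At 6 h the points of the first 6 genes lie below 0, and at 30 h aCap-like points are the lowest for Fkbp5 and Fam107a, at −2.67 and −3.28.

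The barcodes that passed the quality limits but not the endothelial gate numbered 274, 326 and 235, with a median of 2503, 2560.5 and 2770 UMIs. Markers of pericytes and smooth muscle marked between 20% and 26.3% of them, of fibroblasts between 14.5% and 22.6% and of leukocytes between 6.57% and 15.3%, the last higher in both melanoma libraries. They held endothelial RNA as well: the 5 pan-endothelial markers summed to 902, 1018 and 661 CPM in them, beside 6435, 6652 and 7145 CPM in the endothelial sums. Levels in these barcodes are therefore not those of other cell types alone. At 6 h the intervals of Fkbp5, Tsc22d3, Zbtb16, Klf9 and Sult1a1 lay below 0 there, with Tsc22d3 at −0.35 (−0.60 to −0.11). Those of Fam107a (−2.22 to 0.35), Nr3c1 (−0.49 to 0.04) and Sgk1 (−0.01 to 0.63) spanned 0. Zbtb16 was 160 CPM in control barcodes, 50.4 at 6 h and 125 at 30 h, a log2 ratio of −1.66 (−2.08 to −1.26) at 6 h and −0.35 (−0.67 to −0.04) at 30 h. Sult1a1 was 79.5, 28.4 and 38.9 CPM, Klf9 404, 217 and 247 CPM, and Fkbp5 88.3, 51.1 and 55.7 CPM. Sgk1 was 120, 148 and 84.7 CPM and Nr3c1 208, 178 and 200 CPM. For Klf9 and Sgk1 the order of the libraries was the same as in the endothelial barcodes. So it was for Tsc22d3 (247, 194 and 216 CPM) and Fam107a (13.3, 7.10 and 5.34 CPM). Each of these genes had neighbours whose intervals overlap. Zbtb16 was below the control at 30 h here, but not in the sum of all endothelial barcodes. The mix of cells differed by library: leukocyte markers summed to 2944, 8963 and 10730 CPM, and epithelial ones to 20957, 17476 and 41870 CPM. The part of this mix in the ratios was not tested, and no share of all genes in these barcodes is set beside them. In empty droplets (10 to 100 UMIs), whose RNA is free in the suspension, Zbtb16 was 98.1, 69.1 and 66 CPM and Fkbp5 36.5, 14.4 and 12.9 CPM. The largest part of the endothelial sums that such RNA could make up, from Scgb1a1, Sftpc and Hbb-bs, was 2.49%, 5.35% and 3.43%, and with it subtracted the log2 ratio of Zbtb16 at 6 h was −1.12 and that of Fkbp5 −0.85.

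The 6 members lower at 6 h, chosen for that level, were also read per gCap-like barcode. Each barcode was thinned at random to 2000 UMIs, and the UMIs of the 6 lower genes (Fkbp5, Tsc22d3, Zbtb16, Klf9, Fam107a and Sult1a1) were added up. Their mean was 2.32 in 7192 control barcodes, 1.23 in 6961 barcodes at 6 h and 1.97 in 5466 barcodes at 30 h. Barcodes with none of these UMIs made up 13.3% (12.6 to 14.2), 33.9% (32.8 to 35) and 18.1% (17.1 to 19.1), with exact Clopper-Pearson intervals. Barcodes with 5 or more made up 10.8%, 1.77% and 7.04%. The variance was 1.31, 1.26 and 1.29 times the mean. Counts this low cannot show whether a separate group of barcodes without these RNAs existed. For the 15 pairs of the 6 genes, the number of barcodes with both genes was a median of 1.05, 1.02 and 1.06 times the product of their shares.

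**Figure D3:**
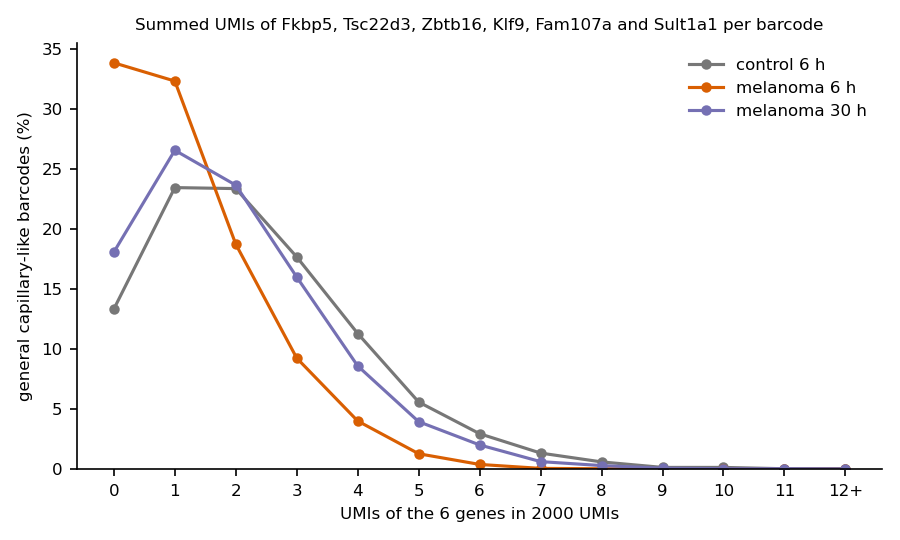
Share of gCap-like barcodes (y axis, %) by the summed UMIs of 6 genes after thinning each barcode to 2000 UMIs (x axis), for the control, 6 h and 30 h libraries. The 6 h curve is highest at 0 UMIs (33.9% of barcodes) and the control and 30 h curves lie to its right, with 13.3% and 18.1% at 0. Klf9 weighs most in the sum, and the scarcer Fkbp5, Fam107a and Sult1a1 were lower at 30 h than at 6 h.

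The shares of thinned endothelial barcodes with a UMI followed the sums. For Zbtb16 they were 34.4% (33.5 to 35.2) in the control, 17.2% (16.5 to 18.0) at 6 h and 35.1% (34.1 to 36.1) at 30 h, and 71.7%, 46.9% and 72.1% without thinning. For Fam107a they were 7.95%, 3.24% and 2.91%, and for Nr3c1 35.2%, 36.9% and 36.1%. Fam107a was nearly absent from LEC-like barcodes, with thinned shares of 2.82%, 0% and 0% in 71, 51 and 55 barcodes. Its endothelial shares lay within the LEC-like intervals, which reached 9.81%, 6.98% and 6.49%. In barcodes outside the endothelial gate its shares were 3.30%, 1.15% and 1.46%. For the other genes no background share is set beside the values.

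The study describes a reactive capillary state marked by a panel of genes that includes Pim3 and Inhbb. These 7 panel genes were read in the same thinned gCap-like barcodes. At 6 h, the 6 lower genes summed to 644 CPM (620 to 668) in the 2201 barcodes without a panel UMI and to 537 CPM (512 to 563) in the 1608 barcodes with 3 or more. In the control the values were 1174 (1146 to 1201) in 3039 barcodes and 1093 (1043 to 1145) in 806. At 30 h they were 983 (955 to 1011) in 2426 barcodes and 925 (871 to 983) in 577, with overlapping intervals. Barcodes with 1 or 2 panel UMIs held 636 CPM at 6 h, 1159 in the control and 996 at 30 h, the last above both other sets. The lower level at 6 h in each of these sets restates how the 6 genes were chosen. Between the same sets Fkbp5 went the other way, with 21.8 CPM (17.7 to 26.6) without and 32.3 (26.4 to 39.2) with 3 or more panel UMIs at 6 h, 49.9 and 58.3 CPM in the control and 14 and 19.1 CPM at 30 h, each pair with overlapping intervals. At 6 h and in the control Fkbp5 did not follow the number of panel UMIs in steps. Barcodes with 1 or 2 held 20.6 CPM at 6 h and 43.5 CPM in the control, below those with none. At 30 h they held 17.1 CPM, between the other sets, with overlapping intervals. Fam107a was 13.6 and 15.2 CPM at 6 h, but 44.6 and 37.2 CPM in the control and 11.1 and 8.67 CPM at 30 h, each pair also with overlapping intervals.

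Genes around the receptor were described from fixed lists by counts and medians, beside a median of all tested genes of −0.01 at 6 h and −0.07 at 30 h on the scale of log2(CPM + 1). The counts of each list stand beside the shares of all genes given above, 1.81% lower and 2.57% higher at 6 h and 7.34% lower and 5.87% higher at 30 h. Of the 12 chaperones of the receptor (all measured), 8 were higher by the fold at 6 h and 1, Fkbp5 itself, was lower, with a median of 0.73. Hsp90aa1, the inducible Hsp90, went from 199 CPM in the control to 434 at 6 h and 198 at 30 h, Hspa8 from 754 to 1573 and 962, and Fkbp4, the paralog of Fkbp5 that favours receptor transport, from 55.8 to 101 and 69.1. At 30 h none of the 12 was higher by the fold and the median was 0.14. Fkbp4 and Fkbp5, which compete for the complex, thus had opposite directions at 6 h. Heat shock genes are also on the list of dissociation stress, of which 8 of 10 were higher at 6 h (median 0.75) while 4 were lower and 1, Hsph1, higher at 30 h (median −0.46), with Hspa1b at 17.2, 111 and 10.4 CPM. The part of that response in the levels of the members was not tested.

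Of the genes listed for the receptor and steroid handling, 5 of 6 passed the filter. Hsd11b1, which regenerates active hormone, was 17.5 CPM in the control, 13.3 at 6 h and 15.9 at 30 h, and Hsd11b2, which inactivates it, was near 1 CPM throughout (0.947, 1.16 and 1.63). Nr3c2, the mineralocorticoid receptor that binds the same hormone, was 72.6, 54.6 and 47.4 CPM, a log2 ratio of −0.41 (−0.47 to −0.36) at 6 h and −0.62 (−0.67 to −0.56) at 30 h. The efflux pumps of this list had opposite directions at 6 h: Abcb1a was 122, 89.4 and 137 CPM and Abcb1b 8.61, 20.6 and 6.82 CPM. Whether they carry corticosterone was not examined. None of the 10 coregulators passed the fold at 6 h (median −0.03), and 2, Ncoa1 and Ncoa2, were lower at 30 h (median −0.33).

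Other genes known to be induced by the receptor lay on both sides of the control at 6 h. Of 26, 22 passed the filter, with 9 below 0 and 13 above 0 at 6 h, when 2 were lower by the fold (Per1 and Arrdc2) and 4 higher (Mt1, Mt2, Bcl6 and Cebpb), with a median of 0.18. Per1, a clock gene, was 24.8, 13 and 43.2 CPM, with a log2 ratio of −0.93 (−1.03 to −0.83) at 6 h, and it lay between −1.07 and −0.90 in the gCap-like, aCap-like, artery-like and vein-like classes. Mt1, a metallothionein, was 17.7, 54.9 and 3.28 CPM, the reverse order. Mt2, at 3.78, 15.4 and 0.982 CPM, passed the filter only through its 6 h level. Dusp1, a phosphatase of MAP kinases, was 420, 470 and 424 CPM, and Nfkbia, the inhibitor of NF-kB, 462, 558 and 454 CPM. At 30 h 7 of the 22 were lower and 2 higher (median −0.42). The genes below the filter were all lower than the control at 6 h and are not in these counts. They were Angptl4 (8.27, 3.25 and 2.69 CPM), Hif3a (1.02, 0.218 and 0.528 CPM), Crispld2 (2.92, 2.36 and 1.85 CPM) and Pdk4 (1.57, 1.13 and 0.933 CPM).

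Inflammatory genes known to be repressed by the receptor were described in the same way. Of 15, only 6 passed the filter and all 6 were above 0 at 6 h (median 0.47), of which 2, Cxcl10 and Selp, passed the fold. Selp, the P-selectin of activated ECs, was 13.9, 26.9 and 4.71 CPM, and Icam1, an adhesion molecule, 260, 360 and 141 CPM. At 30 h, 4 of the 6 were lower by the fold (median −0.71). Sele (0.495, 6.53 and 0.663 CPM) and Csf2 (0.682, 9.42 and 0.0491 CPM), listed but below the filter, were also highest at 6 h. So were Cxcl1, Cxcl2, Il1b, Ccl7 and Csf3, the last 2 of these on 9 and 5 UMIs at 6 h. Ccl2 (1.11, 0.550 and 0.0736 CPM) and Il6 (0.308, 0.298 and 0.0736 CPM) were highest in the control, Il6 on 28 UMIs there and 26 at 6 h.

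The paralogs of members mostly stayed near the control at 6 h. Of 11, 10 passed the filter, 1 was higher by the fold (Fkbp4, above) and none was lower (median −0.08). Tsc22d1 was 176, 168 and 202 CPM and Tsc22d4 92.6, 86.5 and 95.1 CPM, and neither had the dip of Tsc22d3. Klf13, a close relative of Klf9, was 303, 247 and 368 CPM, a log2 ratio of −0.30 (−0.32 to −0.27) at 6 h. Zbtb20 was 1149, 934 and 995 CPM, Sgk3 61.9, 61.2 and 48.0 CPM, and Fam107b 6.11, 4.95 and 6.96 CPM.

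Of 16 clock genes, 11 passed the filter. At 6 h 1 was lower by the fold (Per1) and 2 higher (Nr1d1 and Bhlhe40), and at 30 h 3 were lower and 4 higher. Arntl was 37.3, 26.3 and 16.4 CPM, Nr1d1 9.80, 17.3 and 25.0 CPM, and Dbp 4.94, 4.20 and 12.5 CPM. Dbp passed the filter only through its 30 h level. The hour of the day of each collection is not given in the sources used here, and the part of the rhythm in the levels of the members was not tested.

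**Figure D4:**
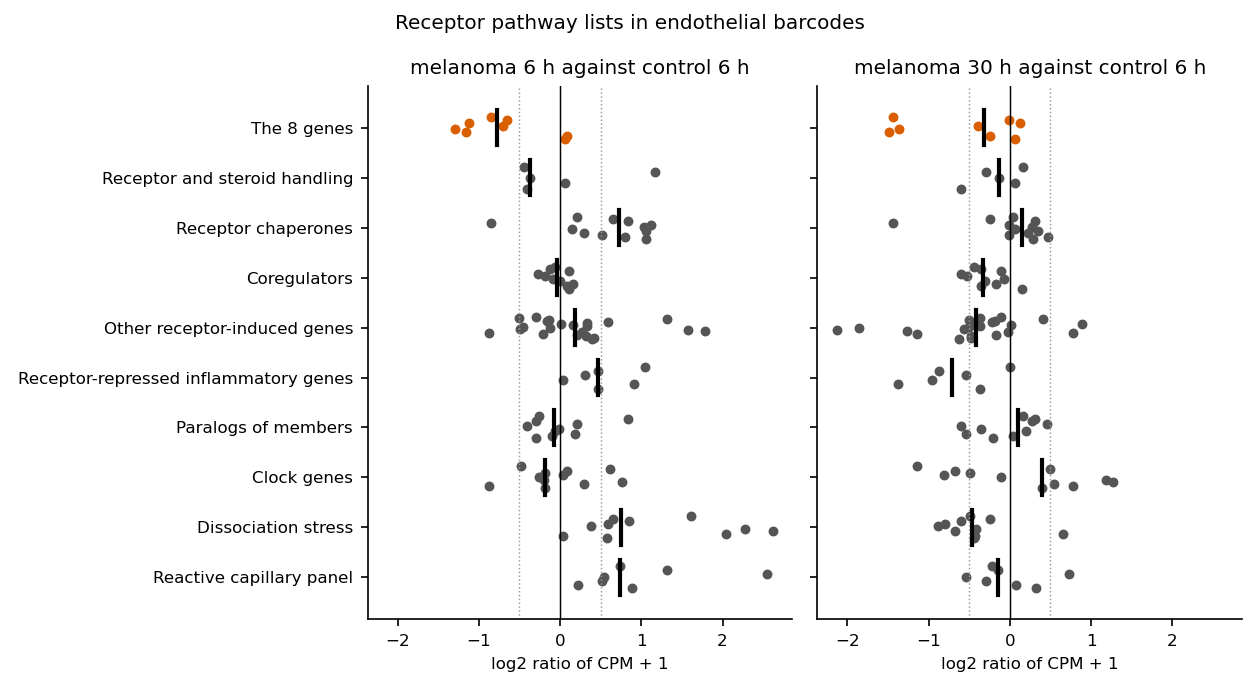
Log2 ratios of CPM + 1 (x axis) against the control for the genes of each list that passed a mean of 5 CPM, at 6 h (left) and 30 h (right). Each point is a gene, black bars are medians and dotted lines mark 0.5 in each direction. Chaperones, dissociation stress genes and the reactive panel lie mostly to the right at 6 h (medians 0.73, 0.75 and 0.73), the 8 genes to the left, and other receptor-induced genes on both sides.

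Across 12 sums (3 libraries by gCap-like, aCap-like, artery-like and vein-like classes), each centred within its class on the log2(CPM + 1) scale, the members fell into patterns. Fkbp5, Fam107a and Sult1a1 were alike (Pearson r of 0.89 for Fkbp5 and Fam107a, 0.92 for Fkbp5 and Sult1a1, 0.83 for Fam107a and Sult1a1). So were Tsc22d3 and Zbtb16 (0.88), while Fkbp5 and Zbtb16 were not (0.01). The patterns were not sharply apart. Klf9 had an r of 0.80 with Sult1a1 and of 0.63 with each of Fkbp5, Fam107a, Tsc22d3 and Zbtb16. Sgk1 had an r of 0.66 with Fkbp5. The 12 points share 3 libraries, so these values mainly describe the order of the libraries, and no test was made. Of 6908 genes that averaged 20 CPM or more, the closest to Fkbp5 were Unc13b, Acadsb and Stxbp5 (r of 0.99 each), and those closest to Sult1a1 were Gtf2a2, Eci2 and Kalrn (0.98, 0.98 and 0.97). Closest to Zbtb16 were Prkacb, Nop53 and Thsd1 (0.99, 0.96 and 0.95), and to Tsc22d3 Cpq, Fgfr3 and Bcl2l1 (0.96, 0.93 and 0.92), of which Bcl2l1, an inhibitor of apoptosis, had a dip of like depth, at 171, 99.1 and 165 CPM. Klf9 was closest to Rab27a, Ccdc85a and Fau (0.97, 0.96 and 0.95), Fam107a to Fbxo42, Anks3 and Rcbtb1 (0.96, 0.95 and 0.94), Sgk1 to Slc35f5, E130308A19Rik and Slk (0.95, 0.95 and 0.94) and Nr3c1 to Sp110, Gbp8 and Rala (0.94, 0.92 and 0.92).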

How the data were processed

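Per the file headers, the authors made the deposited UMI counts per gene and barcode with Cell Ranger 7.2.0, unfiltered and on the mouse build mm10, while the methods of the study name an older version. The labels also list Seurat 4.4.0, which left no values here. Whether intronic reads and strand were used in counting is not stated in the sources used here. Total counts were 140601123 UMIs (control), 132566934 (6 h) and 124085451 (30 h).

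The groups come from the treatment in the labels. The members and all gene lists were chosen with earlier results of these data known. All 8 members were named. Of the lists, some genes with at least 20 CPM were named, not always those with the largest ratios at 6 h. Among the chaperones, Stip1 (1.07) and Hsp90ab1 (1.03) had larger log2 ratios than Fkbp4 (0.85). Paralogs were named as well. Further examples were chosen after their values were seen (Hsd11b1, Hsd11b2, Abcb1b, Arrdc2, Mt2, Angptl4, Hif3a, Crispld2, Pdk4, Dusp1, Nfkbia, Cxcl10, Selp, Sele, Csf2, Ccl2, Il6, Cxcl1, Cxcl2, Il1b, Ccl7, Csf3, Hilpda, Plvap, Cd93, Car4, Apln, Hsph1, Ncoa1, Ncoa2, Bhlhe40, Nr1d1, Dbp). Classes were gated on UMIs: at least 8 of a vein, artery or aerocyte panel and 3 times the next panel, at least 10 of the lymphatic panel, and for general capillary at most 3 of each panel with at least 4 of Gpihbp1 and Kit. These limits were set on the marker counts. No doublet caller was run; an alternative leaves out barcodes with at least 2 UMIs of markers of another cell type (16.5% to 22.4% of endothelial barcodes). Libraries with 1 sample a group allow no test, so sums, CPM, ratios and shares with 95% exact intervals were computed in Python 3.11.15 with numpy 2.4.6 and scipy 1.17.1. Gene positions are from GENCODE M21, which held 32158 of 32285 identifiers.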

Additional observations from a re-analysis of the deposited data

Results flagged for a closer look

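Tsc22d3 at 30 h stood out because classes of the same libraries moved in opposite directions: its log2 ratio to the control was 0.59 (0.48 to 0.71) in vein-like barcodes and −0.98 (−1.56 to −0.42) in LEC-like barcodes, the latter on 71 control and 55 melanoma barcodes. Zbtb16 at 30 h did the same, at 1.12 (0.54 to 1.72) in LEC-like barcodes and −0.30 (−0.37 to −0.22) in aCap-like barcodes. Without barcodes carrying markers of another cell type, Tsc22d3 was at 0.76 and −1.28 and Zbtb16 at 1.21 and −0.31 in the same order. With 1 library per group, neither difference between classes was tested.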

How the results depend on the processing

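Depth left no member at the floor except Fam107a in LEC-like barcodes, and the intervals hold no variation between mice. No alternative that leaves out a replicate could be run with 1 library per group, and no paired analysis was possible because each group holds 1 library. In all endothelial barcodes, 167 of the alternative ratios of members lay within the counting interval of the reported value, 49 lay outside it, and no ratio past the fold turned its sign. Under median-of-ratios scaling, ratios near 0 did: Tsc22d3 at 30 h went from −0.01 to 0.06. Giving 4 classes equal weight made 2 members lower from 6 h to 30 h in place of 1 (Sgk1 then at −0.51). Without barcodes carrying markers of another cell type, 1 pair of a member and a class was higher by the fold at 6 h in place of 0. With a log2 ratio of at least 1, the shares of genes were 0.108% lower and 0.373% higher at 6 h, 0.885% lower and 0.806% higher at 30 h, and 1.25% lower and 1.00% higher from 6 h to 30 h. Median-of-ratios scaling gave 4.81% lower at 30 h, and left 1 other receptor-induced gene lower at 6 h in place of 2. Leaving out barcodes shared by libraries was chosen after seeing the data.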
